A study of Mus musculus with 6 samples.

Results

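The genes described here serve fatty acid oxidation and ketone body metabolism in liver, and their mRNA was compared between mice expressing FXR-WT and mice expressing Y67F-FXR in hepatocytes. They are 39 named genes of the 23284 in the count files, listed by known role with earlier results of these data known, and all 39 had enough reads to be tested. The list does not hold the whole pathway, and of ketone body metabolism it holds only Acat1 and Bdh1. All 6 male mice carried a floxed FXR gene and at 8 weeks of age received, through the tail vein, AAV8 vectors in which the hepatocyte-directed TBG promoter drove Cre recombinase, which deletes the floxed gene, and a replacement FXR. In 3 mice the replacement was FXR-WT and in 3 it was Y67F-FXR, in which tyrosine 67, the residue phosphorylated after FGF19, is phenylalanine. After 4 weeks, every mouse was given chow with 0.5% cholic acid, a bile acid that activates FXR, for 6 h. Cre, the vectors and the cholic acid chow were thus common to both groups, and no liver without an FXR transgene and none on plain chow was analysed here. Only hepatocytes are targeted by the TBG promoter, and the other liver cells keep the floxed gene.

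Fatty acids enter hepatocytes, are bound by FABP1 and are joined to coenzyme A by acyl-CoA synthetases. Carnitine carries the long-chain acyl groups into mitochondria, where beta-oxidation shortens them to acetyl-CoA for the citric acid cycle or for ketone bodies, while peroxisomes shorten very long and branched chains. Thioesterases release free fatty acids from acyl-CoA again, and many of these genes are induced together in the liver during fasting.

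The deposited counts summed to between 19551113 and 22053320 reads per library. Of the genes counted, 12453 passed the filter and were compared by the quasi-likelihood test of edgeR. Calls required a Benjamini-Hochberg adjusted p under 0.05 together with a difference of more than 1.5-fold. Levels are given as CPM, read counts relative to the scaled library size, and differences as the log2 fold change of Y67F-FXR over FXR-WT (log2FC) with its standard error (SE). An exact permutation test of 3 livers against 3 could not give a two-sided p below 0.10. Nr1h4, the FXR gene, had 152, 209 and 198 CPM in the FXR-WT livers and 169, 169 and 186 CPM in the Y67F-FXR livers. Its counts do not separate mouse transcripts from reads of the transgene that align to it. The paper describes its flag-tagged FXR as human, and reads of a human transgene may not all align to the mouse gene. The Nr1h4 counts are thus no measure of the transgene level. Summed over 7 hepatocyte markers, the level was 99088.6 to 113342.5 CPM in FXR-WT and 96793.6 to 119097.8 CPM in Y67F-FXR livers, so the livers carried their defining transcripts. In whole liver, fewer cells of a type and less RNA per cell cannot be told apart.

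Of the 39 genes, 4 were higher in Y67F-FXR livers by this test and none was lower, by edgeR or by DESeq2. They were Acot1 and Acot2, which hydrolyse acyl-CoA, Acaa1b, a peroxisomal thiolase, and Slc27a1, a fatty acid transport protein. These 4 are 10.3% of the 39 genes, where 0.546% of all tested genes were called higher (68 genes) and 0.426% were called lower (53 genes). With scaling by library totals the same 4 were called, and over all tested genes 52 were called higher and 68 lower. The fitted difference was toward higher levels in Y67F-FXR for 37 of the 39 genes (94.9%), against 52.0% of all tested genes. For 23 genes (59.0%) every Y67F-FXR liver lay above every FXR-WT liver, which was so for 10.2% of all tested genes. No gene of the 39 had every Y67F-FXR liver below every FXR-WT liver, which was so for 10.5% of all tested genes. At an unadjusted p under 0.05 there were 17 genes higher (43.6%), against 6.75% of all tested genes, and 1 lower, Abcd2, against 6.67%. The median log2FC was 0.35 over the 39 genes and 0.01 over all tested genes, and without the 4 called genes it was 0.32 over 35 genes.

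**Figure D1:**
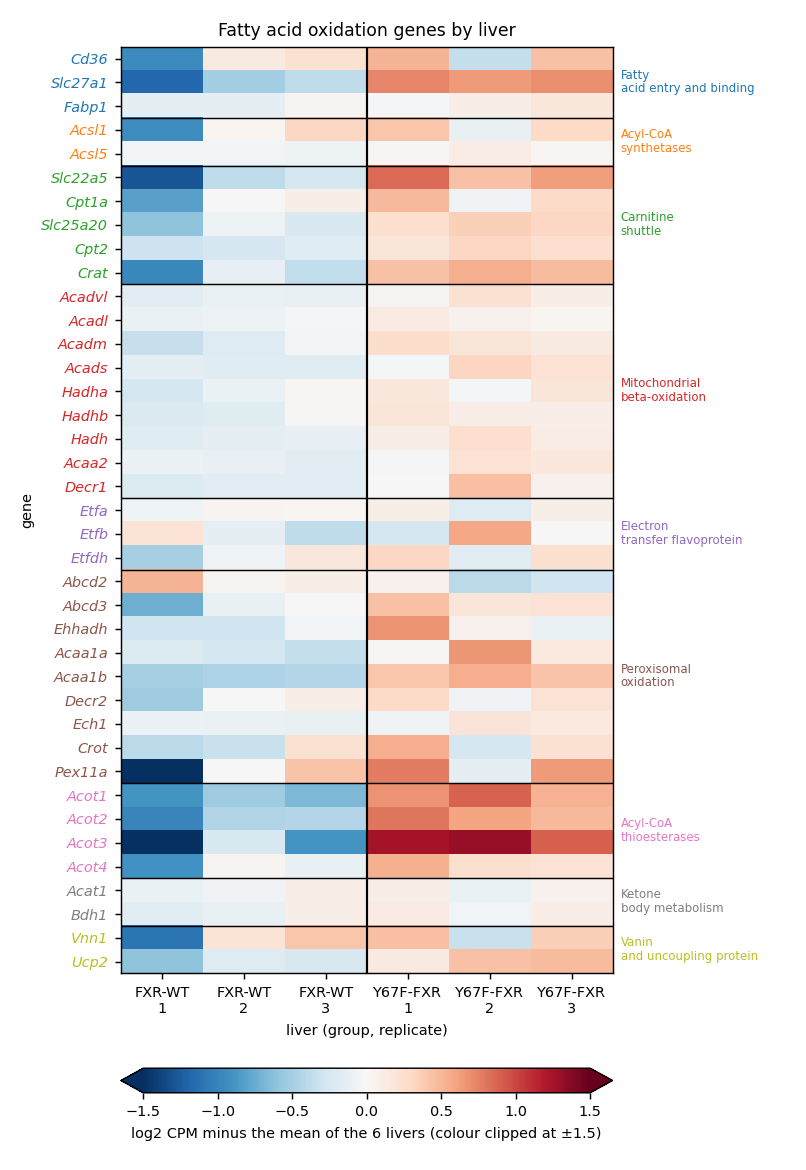
Level of each of the 39 genes (rows, grouped by compartment) in each of the 6 livers (columns), as log2 CPM minus the mean of the 6 livers, with the colour clipped at 1.5 in either direction. FXR-WT replicate 1 is the lowest liver for 30 of the 39 genes, and the thioesterases separate the groups most widely.

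The calls changed with single livers. Leaving out 1 liver at a time gave 5 calls without FXR-WT replicate 1, 1 without FXR-WT replicate 2, 0 without FXR-WT replicate 3, and 1, 2 and 1 without Y67F-FXR replicates 1, 2 and 3. Over all tested genes the calls higher went from 68 to 35, 17, 2, 20, 33 and 9 in the same fits. The fitted difference of 20 of the 39 genes, none of them called, moved by over 1.5 times or turned in at least 1 of these fits. Acot1 was called in 5 of the 6 fits, with an adjusted p of 0.0614 without FXR-WT replicate 3. DESeq2, which uses another estimate of the spread, called 9 of the 39 genes, among them the same 4, and 215 of all tested genes higher.

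The size of the difference is given by compartment. The 4 thioesterases had a median log2FC of 1.32 and the 5 carnitine shuttle genes one of 0.60. The 9 peroxisomal genes had a median of 0.46, and the 3 genes of fatty acid entry and binding one of 0.35. For the 9 genes of mitochondrial beta-oxidation the median was 0.25, for the 3 of the electron transfer flavoprotein system 0.24 and for the pair of acyl-CoA synthetases 0.21. It was 0.08 for the pair of ketone body genes and 0.46 for Vnn1 and Ucp2. Scaling by library totals shifted the median of all genes by -0.070, and gave 0.008 for the ketone body genes and 0.141 for the synthetases. Without FXR-WT replicate 1 the thioesterases had 1.19, the carnitine shuttle 0.46 and mitochondrial beta-oxidation 0.26, while the medians were 0.23 for the peroxisomal genes, 0.14 for entry and binding, 0.07 for the synthetases, 0.08 for the flavoprotein system, 0.03 for the ketone body genes and 0.22 for Vnn1 and Ucp2. The medians also went up, to 0.56 for entry and binding, 0.34 for the synthetases and 0.15 for the ketone body genes without FXR-WT replicate 3, and to 0.57 for entry and binding without Y67F-FXR replicate 2. For entry and binding and for the peroxisomal genes they were 0.22 and 0.28 without Y67F-FXR replicate 1, and for the ketone body genes 0.05 there and 0.12 without Y67F-FXR replicate 2. For the flavoprotein system the median was also 0.11 without FXR-WT replicate 3, 0.15 without Y67F-FXR replicate 1 and 0.07 without Y67F-FXR replicate 2. Every gene past a 1.5-fold difference, 11 of the 39 (28.2%, all higher, against 4.44% higher and 4.60% lower of all tested genes), belonged to entry, the carnitine shuttle, the peroxisome, the thioesterases or Ucp2, and none to the mitochondrial spiral.

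**Figure D2:**
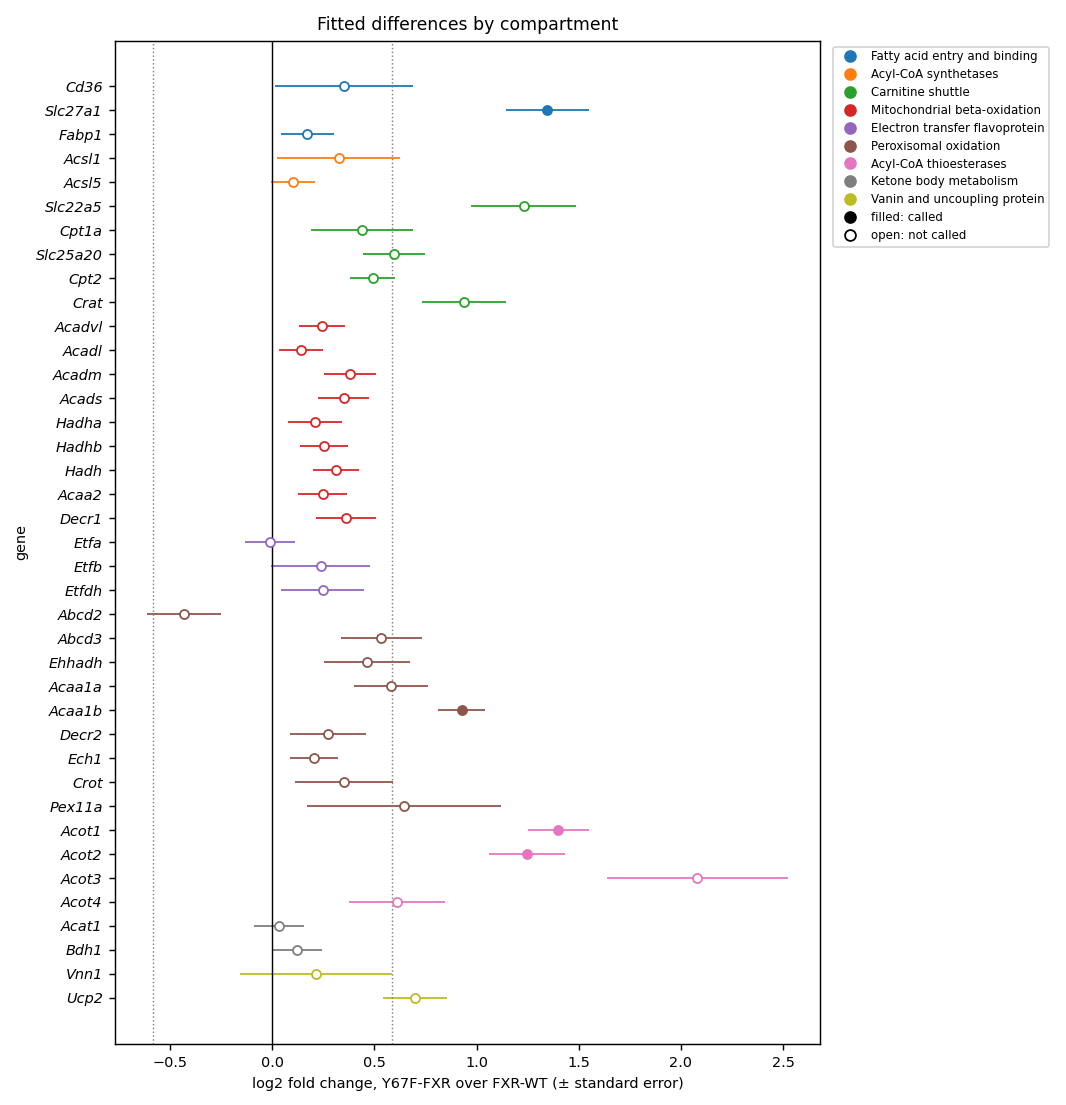
Fitted log2 fold change of Y67F-FXR over FXR-WT for each of the 39 genes, with bars of 1 standard error, coloured by compartment. Filled points are the 4 called genes, dotted lines mark a 1.5-fold difference, and only Abcd2 and Etfa lie left of 0.

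Among the genes of fatty acid entry, Slc27a1 (chromosome 8 of mm9, 74092826 to 74110607), which encodes a membrane fatty acid transport protein, rose. It had 13.6, 21.6 and 23.6 CPM in FXR-WT and 51.5, 48.1 and 50 CPM in Y67F-FXR livers. Every Y67F-FXR liver was above every FXR-WT liver by a wide gap, and the Y67F-FXR livers were close together. This corresponded to a log2FC of 1.35 (SE 0.202, adjusted p = 0.0307), a 2.54-fold difference. The call was lost without any one liver other than FXR-WT replicate 1, with adjusted p-values up to 0.136.

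Cd36, a scavenger receptor that takes up long-chain fatty acids, had 26.5, 56.9 and 60.7 CPM in FXR-WT and 73.9, 40.2 and 69.8 CPM in Y67F-FXR livers. The groups overlapped, with the lowest value in FXR-WT replicate 1 and the next in Y67F-FXR replicate 2, and the log2FC was 0.35 (adjusted p = 0.735), or 0.05 without FXR-WT replicate 1 and 0.57 without Y67F-FXR replicate 2. Fabp1, the cytosolic fatty acid binding protein of hepatocytes, was by far the most abundant of the 39 genes per length, with 10237.2 ± 774 CPM per kb (SD, n = 3) in FXR-WT and 11531.8 ± 731 CPM per kb (SD, n = 3) in Y67F-FXR livers. The livers had 4819.4, 4814.5 and 5476.3 CPM in FXR-WT and 5292.6, 5721.1 and 6007.2 CPM in Y67F-FXR, so that FXR-WT replicate 3 lay above Y67F-FXR replicate 1 and the groups overlapped. The log2FC of Fabp1 was 0.17 (SE 0.128, adjusted p = 0.651).

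The 250 bases before the Fabp1 start are shown because they held the only match, among the 33 of the 39 genes that have such a window, to the letters AGGNCANAGGNCA, a direct repeat of a nuclear receptor half-site with 1 base between the copies. Sequences are RefSeq's, of build GRCm38.p6, which is not the build of the counts. The Fabp1 window is chr6:71199629-71199878, plus strand, and the capitals mark the match, on the opposite strand and at position -67 counted back from the start.
Fabp1: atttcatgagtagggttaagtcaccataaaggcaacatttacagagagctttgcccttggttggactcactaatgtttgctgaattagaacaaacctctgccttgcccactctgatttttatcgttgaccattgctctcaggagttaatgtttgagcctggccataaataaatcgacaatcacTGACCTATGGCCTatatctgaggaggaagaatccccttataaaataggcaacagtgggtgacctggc
The repeat occurred in 0.338% of 32851 mouse promoter windows of this length, searched on both strands. Some of the 33 genes have more than 1 start, which gives 39 windows, and no entry was matched for Crat, Acaa2, Decr1, Abcd2, Acat1 and Vnn1. The single half-site AGGTCA, which overlaps the repeat, was in 6 of the 39 windows (15.4%), those of Acadm, Acadvl, Acot4, Cd36, Cpt1a and Fabp1, and in 14% of all windows. None of the 4 called genes was among these.

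The acyl-CoA synthetases join fatty acids to coenzyme A. Acsl1, the more abundant of the pair per length at 327 ± 130 CPM per kb (SD, n = 3) in FXR-WT and 409 ± 75.3 CPM per kb (SD, n = 3) in Y67F-FXR livers, had 715, 1402.4 and 1699.9 CPM in FXR-WT and 1830.0, 1265.1 and 1683.7 CPM in Y67F-FXR livers. The groups overlapped, and FXR-WT replicate 1 stood under all other livers. Its log2FC was 0.32 (SE 0.301, adjusted p = 0.727), and it ran from 0.03 without FXR-WT replicate 1 to 0.59 without FXR-WT replicate 3. Acsl5 lay within 293 to 300 CPM in FXR-WT and 310 to 333 CPM in Y67F-FXR livers, which did not overlap, with a log2FC of 0.10 (adjusted p = 0.764), or 0.06 without Y67F-FXR replicate 2.

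In the carnitine shuttle, none of the 5 genes was called by edgeR. Of the 5, all but Cpt1a, 4 genes, had every Y67F-FXR liver above every FXR-WT liver (10.2% of all tested genes) and an unadjusted p under 0.05 (6.75%), and DESeq2 called 3 of them, Slc22a5, Slc25a20 and Crat, among 215 of all tested genes called higher. Slc22a5, the plasma membrane carnitine transporter, had 11.3, 21.2 and 23.0 CPM in FXR-WT and 50.1, 37.6 and 42.8 CPM in Y67F-FXR livers. The lowest Y67F-FXR liver was well above the highest FXR-WT liver. The fitted log2FC was 1.23 (SE 0.257, adjusted p = 0.0847). In 13.7% of the 100-base windows of its longest transcript the sequence was identical to Slc22a21, and reads that map to several places were not counted.

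Crat, carnitine acetyltransferase, which moves acetyl groups between coenzyme A and carnitine, had 61.0, 109 and 92.2 CPM in FXR-WT and 162, 175 and 167 CPM in Y67F-FXR livers. The Y67F-FXR livers lay close together above a wider FXR-WT group. The test gave a log2FC of 0.94 (SE 0.204, adjusted p = 0.0950), and Crat shares exon bases with Dolpp1, where reads on both genes were not counted. Cpt2, which returns the acyl group from carnitine to coenzyme A on the inner mitochondrial membrane, had 213, 221 and 232 CPM in FXR-WT and 297, 326 and 312 CPM in Y67F-FXR livers. Both groups were tight and well apart, though the difference was small, with a log2FC of 0.49 (SE 0.11, adjusted p = 0.0969). Slc25a20, the carnitine-acylcarnitine translocase, had 141, 204 and 184 CPM in FXR-WT and 257, 276 and 266 CPM in Y67F-FXR livers. Here too the groups did not overlap, and the log2FC was 0.60 (adjusted p = 0.136). It shares 4.22% of its 100-base windows with other loci.

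Cpt1a, the outer membrane transferase that sets the rate of mitochondrial fatty acid entry, was the most abundant shuttle gene per length, at 126 ± 39 CPM per kb (SD, n = 3) in FXR-WT and 171 ± 31.4 CPM per kb (SD, n = 3) in Y67F-FXR livers. Its CPM were 350, 620 and 657 in FXR-WT and 862, 593 and 754 in Y67F-FXR livers. Y67F-FXR replicate 2 lay under FXR-WT replicates 2 and 3, so the groups overlapped, and FXR-WT replicate 1 was far under the rest. The log2FC of Cpt1a was 0.44 (SE 0.251, adjusted p = 0.522), and it ran from 0.20 without FXR-WT replicate 1 to 0.60 without FXR-WT replicate 3.

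**Figure D3:**
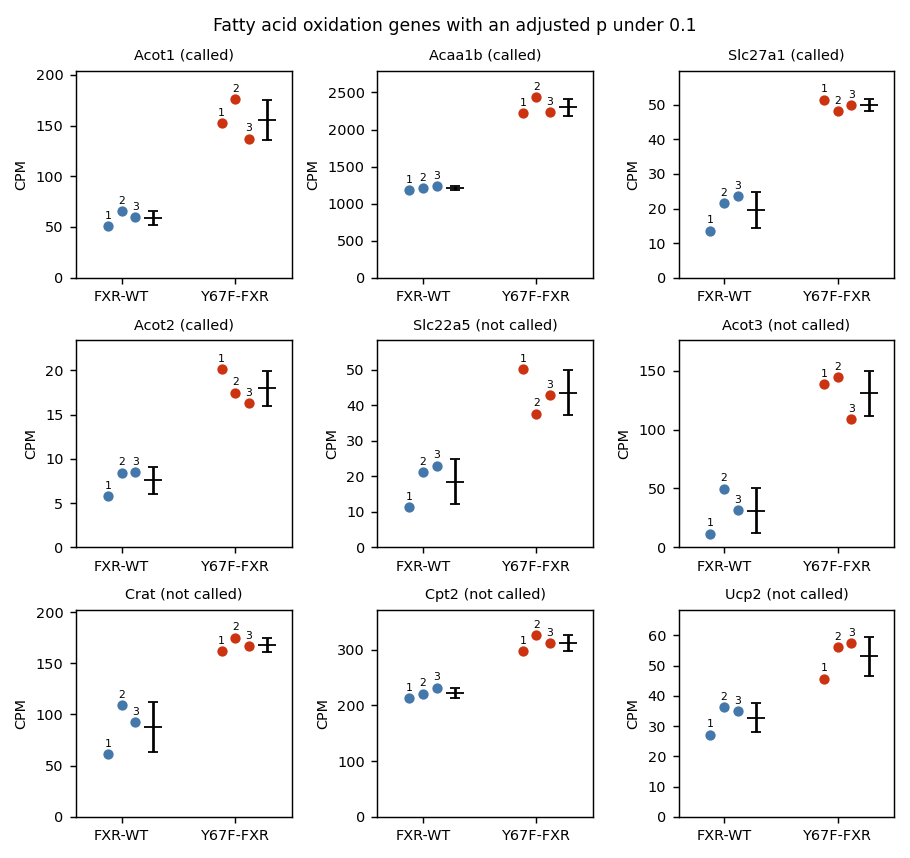
CPM of the 9 genes with an adjusted p under 0.1, in order of adjusted p, with the replicate number beside each liver's point and bars for the mean ± SD of 3 livers. In each panel the 3 Y67F-FXR livers (red) lie above the 3 FXR-WT livers (blue), and the title says whether the gene was called.

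The 9 genes of mitochondrial beta-oxidation all had small fitted differences toward higher levels in Y67F-FXR, with log2FC values from 0.14 to 0.38. None was called by edgeR or DESeq2, and 4 (Acadm, Acads, Hadh and Decr1) had an unadjusted p under 0.05, where 6.75% of all tested genes were higher by that threshold. For 8 of the 9, all but Hadha, every Y67F-FXR liver lay above every FXR-WT liver, against 10.2% of all tested genes. The acyl-CoA dehydrogenases, which take the first step for very long, long, medium and short chains, had log2FC values of 0.24 (Acadvl), 0.14 (Acadl), 0.38 (Acadm) and 0.35 (Acads). Hadha and Hadhb, the subunits of the trifunctional protein, had 0.21 and 0.25, and Hadh, the dehydrogenase for shorter chains, had 0.31. Decr1, needed for unsaturated fatty acids, had 0.36, or 0.20 without Y67F-FXR replicate 2, and Hadha had 0.13 without FXR-WT replicate 1.

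Acaa2, the thiolase that releases acetyl-CoA, was the most abundant of the 9 per length, with 668 ± 15.6 CPM per kb (SD, n = 3) in FXR-WT and 792 ± 65.9 CPM per kb (SD, n = 3) in Y67F-FXR livers. Its CPM were 1023.1, 1005.8 and 977 in FXR-WT and 1079.0, 1271.4 and 1215.0 in Y67F-FXR livers. The groups did not overlap, but Y67F-FXR replicate 1 was close to the FXR-WT livers, and the log2FC was 0.25 (SE 0.119, adjusted p = 0.431). Acadm had 563, 626 and 698 CPM in FXR-WT and 857, 816 and 786 CPM in Y67F-FXR livers, which also stood apart (adjusted p = 0.236). Hadha shares exon bases with Fam59b. Hadh had 526, 539 and 549 CPM in FXR-WT and 642, 712 and 645 CPM in Y67F-FXR livers. Its groups did not overlap, and the gap between them was small (adjusted p = 0.277).

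The electron transfer flavoprotein takes electrons from the acyl-CoA dehydrogenases and passes them to the respiratory chain. None of its 3 genes separated the groups. Etfb, its beta subunit and the most abundant of the 3 per length, at 577 ± 119 CPM per kb (SD, n = 3) in FXR-WT and 680 ± 213 CPM per kb (SD, n = 3) in Y67F-FXR livers, had 575, 453 and 383 CPM in FXR-WT and 414, 748 and 500 CPM in Y67F-FXR livers. The spread within each group exceeded the difference between them, and the log2FC was 0.24 (SE 0.242, adjusted p = 0.755). The sequence of Etfb is the same as that of Gm45233 in 65.2% of 100-base windows, so its count is uncertain. Etfa, the alpha subunit, had a log2FC of -0.01 (adjusted p = 0.988), and the sign turned with the processing. Etfdh, which hands the electrons to ubiquinone, had 0.25 (adjusted p = 0.686), with 0.08 without FXR-WT replicate 1 and 0.40 without FXR-WT replicate 3.

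Of the 9 peroxisomal genes, 8 had a fitted difference toward higher levels in Y67F-FXR, against 52.0% of all tested genes. For 4 of them every Y67F-FXR liver lay above every FXR-WT liver, against 10.2%. At an unadjusted p under 0.05, 3 were higher and 1 lower, against 6.75% and 6.67%. By edgeR 1 was called higher, against 0.546% of all tested genes. Acaa1b (chromosome 9 of mm9, 119057161 to 119066211), one of the mouse copies of the thiolase that cleaves 3-ketoacyl-CoA in peroxisomes, had 1183.1, 1209.6 and 1233.2 CPM in FXR-WT and 2224.7, 2432.9 and 2235.6 CPM in Y67F-FXR livers. The FXR-WT livers were nearly equal and every Y67F-FXR liver was far above them. Here the log2FC was 0.93 (SE 0.115, adjusted p = 0.0175), a 1.90-fold difference. Per length it was the most abundant of the 39 genes after Fabp1, with 724 ± 15 CPM per kb (SD, n = 3) in FXR-WT and 1376.7 ± 70.2 CPM per kb (SD, n = 3) in Y67F-FXR livers. Its adjusted p was 0.0724 without FXR-WT replicate 2, 0.10 without FXR-WT replicate 3, 0.0504 without Y67F-FXR replicate 1 and 0.0810 without Y67F-FXR replicate 3.

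Acaa1a, the other copy, lies within 202 kb of Acaa1b on chromosome 9 and had 296, 285 and 268 CPM in FXR-WT and 348, 544 and 378 CPM in Y67F-FXR livers. These groups did not overlap either, and Y67F-FXR replicate 2 stood above the other livers, with a log2FC of 0.58 (adjusted p = 0.202), or 0.35 without that liver. In 22.6% of its 100-base windows Acaa1b is identical to Acaa1a, and reads that map to both were not counted. With the counts of both genes summed, a choice made after the data were seen, the log2FC was 0.87 (adjusted p = 0.0247).

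The promoter windows of both copies are shown because one gene was called and its close copy was not. The Acaa1b window is chr9:119157094-119157343, minus strand, and that of Acaa1a is chr9:119341044-119341293, plus strand. Capitals mark the letters CCAAT, a common promoter box bound by NF-Y, on either strand.
Acaa1b: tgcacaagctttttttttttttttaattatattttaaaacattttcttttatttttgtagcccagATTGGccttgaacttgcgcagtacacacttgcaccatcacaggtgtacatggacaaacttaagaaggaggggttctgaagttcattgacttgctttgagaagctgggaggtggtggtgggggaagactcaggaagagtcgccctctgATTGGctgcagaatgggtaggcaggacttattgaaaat
Acaa1a: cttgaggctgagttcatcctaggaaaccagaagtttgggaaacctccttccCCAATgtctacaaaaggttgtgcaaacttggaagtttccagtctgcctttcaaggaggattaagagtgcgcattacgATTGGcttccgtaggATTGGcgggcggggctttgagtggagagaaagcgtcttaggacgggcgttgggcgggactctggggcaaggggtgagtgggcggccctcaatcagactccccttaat
Acaa1b held 2 matches, at positions -185 and -38 counted back from the start, and Acaa1a held 3, the farthest of them at -199. CCAAT was in 19 of the 39 windows (48.7%), of 17 genes, and in 33.8% of all mouse windows.

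The other peroxisomal genes were not called. Abcd3, an ATP-binding transporter of the peroxisomal membrane, had 305, 469 and 506 CPM in FXR-WT and 690, 573 and 590 CPM in Y67F-FXR livers. The groups did not overlap, and FXR-WT replicate 1 was far below the other livers, with a log2FC of 0.53 (adjusted p = 0.289), or 0.34 without that liver. Abcd2, a related transporter, was the one gene of the 39 with an unadjusted p under 0.05 toward lower levels, at 46.0, 33.1 and 34.2 CPM in FXR-WT and 33.5, 24.4 and 26.1 CPM in Y67F-FXR livers. Its highest Y67F-FXR liver lay within the FXR-WT range, and the log2FC was -0.43 (adjusted p = 0.358), or -0.27 without FXR-WT replicate 1.

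Ehhadh, the bifunctional enzyme of peroxisomal beta-oxidation, had a log2FC of 0.46, or 0.20 without Y67F-FXR replicate 1, and its level in Y67F-FXR replicate 1, 1268.4 CPM, was far above the 643 to 828 CPM of the other livers. Pex11a, which promotes peroxisome division, ran from 12.1 to 52.6 CPM in FXR-WT and from 35.2 to 66.7 CPM in Y67F-FXR livers, the widest relative range in FXR-WT along with Acot3, and its log2FC was 0.64 (adjusted p = 0.645), or 0.23 without FXR-WT replicate 1 and 1.07 without FXR-WT replicate 3. Decr2 and Ech1, which handle double bonds, had 0.27 and 0.20, and Crot, which forms acylcarnitines for export from the peroxisome, had 0.35. Without 1 liver, Decr2 ran from 0.10 (without FXR-WT replicate 1) to 0.40 (without FXR-WT replicate 3) and Crot from 0.15 (without Y67F-FXR replicate 1) to 0.58 (without FXR-WT replicate 3). Of these 5 genes, only Ech1 had every Y67F-FXR liver above every FXR-WT liver, which was so for 10.2% of all tested genes.

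The acyl-CoA thioesterases showed the widest separation. Acot1 to Acot4 lie side by side within 71.7 kb of chromosome 12 of mm9 (85328811 to 85400514), in the order Acot2, Acot1, Acot4 and Acot3, with no other gene of the annotation between them. Acot1 is cytosolic, Acot2 mitochondrial, and Acot3 and Acot4 peroxisomal. All 4 had every Y67F-FXR liver above every FXR-WT liver, against 10.2% of all tested genes, and Acot1 and Acot2 were called, against 0.546%.

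Acot1 had 51.2, 65.7 and 59.5 CPM in FXR-WT and 152, 176 and 137 CPM in Y67F-FXR livers. The lowest Y67F-FXR liver exceeded the highest FXR-WT liver by a wide margin. This corresponded to a log2FC of 1.399 (SE 0.149, adjusted p = 0.0139), a 2.64-fold difference and the smallest adjusted p of the 39 genes. Per length Acot1 was the most abundant of the 4, at 37.7 ± 4.67 CPM per kb (SD, n = 3) in FXR-WT and 99.5 ± 12.7 CPM per kb (SD, n = 3) in Y67F-FXR livers.

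Acot2 had 5.77, 8.44 and 8.51 CPM in FXR-WT and 20.2, 17.5 and 16.3 CPM in Y67F-FXR livers, with a log2FC of 1.25 (SE 0.187, adjusted p = 0.0307). Per length it was the least abundant of the 4 genes, and its groups were well apart. The call was kept without FXR-WT replicate 1, and lost without each other liver, with adjusted p-values up to 0.102.

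Acot3 had 11.6, 49.9 and 31.6 CPM in FXR-WT and 139, 145 and 109 CPM in Y67F-FXR livers. It had the largest fitted difference of the 39 genes and a broad FXR-WT group. Its log2FC was 2.08 (SE 0.445, adjusted p = 0.0909), and of the 6 fits that leave out 1 liver it was called in the one without FXR-WT replicate 1, where the adjusted p was 0.0441. Without each of the other livers in turn the adjusted p ran from 0.0777 to 0.247. Acot4 had 18.9, 36.4 and 32.7 CPM in FXR-WT and 51.4, 41.8 and 41.2 CPM in Y67F-FXR livers. Its groups were closer together, with a log2FC of 0.61 (adjusted p = 0.317), or 0.37 without FXR-WT replicate 1.

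Identical 100-base windows make up 12.5% of Acot1, 17.1% of Acot2 and 14.3% of Acot3, shared with other genes of the family, and reads that map to several of them were not counted. With Acot1 to Acot4 summed, a choice made after the data were seen, the livers had 87.4, 160 and 132 CPM in FXR-WT and 363, 381 and 304 CPM in Y67F-FXR. The sum kept the groups apart, with a log2FC of 1.46 (adjusted p = 0.0330).

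The promoter windows of the 2 called thioesterases are shown because these genes are neighbouring copies that were both called. The Acot1 window is chr12:84009252-84009501 and the Acot2 window chr12:83987611-83987860, both on the plus strand. Capitals mark CCAAT on either strand.
Acot1: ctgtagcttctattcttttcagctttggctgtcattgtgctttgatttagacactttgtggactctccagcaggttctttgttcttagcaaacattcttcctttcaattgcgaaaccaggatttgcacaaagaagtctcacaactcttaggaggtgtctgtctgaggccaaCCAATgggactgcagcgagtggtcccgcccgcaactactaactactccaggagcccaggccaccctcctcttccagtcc
Acot2: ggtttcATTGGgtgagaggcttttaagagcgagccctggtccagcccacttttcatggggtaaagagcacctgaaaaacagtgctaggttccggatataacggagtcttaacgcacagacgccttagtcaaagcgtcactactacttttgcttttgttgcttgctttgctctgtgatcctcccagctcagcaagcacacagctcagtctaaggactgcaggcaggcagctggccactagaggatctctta
Each held 1 match, at position -79 in Acot1 and at -244 in Acot2.

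Neither gene of ketone body metabolism separated the groups. Acat1, the mitochondrial thiolase that joins acetyl-CoA units, had 674, 700 and 775 CPM in FXR-WT and 769, 676 and 755 CPM in Y67F-FXR livers. The groups overlapped almost fully, at 212 ± 15.6 and 217 ± 14.8 CPM per kb (SD, n = 3), with a log2FC of 0.03 (SE 0.122, adjusted p = 0.952) whose sign turned with the processing. Bdh1, which interconverts acetoacetate and 3-hydroxybutyrate, had 0.12 (adjusted p = 0.749), with overlapping groups, and ran from 0.07 without FXR-WT replicate 1 to 0.20 without FXR-WT replicate 3.

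Vnn1, the pantetheinase vanin that releases a precursor of coenzyme A, had 52.5, 130 and 150 CPM in FXR-WT and 154, 89.0 and 144 CPM in Y67F-FXR livers, or 45.9 ± 21.4 and 53.3 ± 14.4 CPM per kb (SD, n = 3). FXR-WT replicate 1 was again the lowest liver, and the groups overlapped. The fitted log2FC was 0.22 (SE 0.372, adjusted p = 0.879), and it ran from -0.13 without FXR-WT replicate 1 to 0.50 without FXR-WT replicate 3. Ucp2, an uncoupling protein of the inner mitochondrial membrane, had 27.2, 36.2 and 35.0 CPM in FXR-WT and 45.7, 56.2 and 57.4 CPM in Y67F-FXR livers. Its groups did not overlap, and the log2FC was 0.70 (SE 0.157, adjusted p = 0.0971).

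Within the FXR-WT group, 1 liver stood low in many of these genes. FXR-WT replicate 1 was the lowest of the 6 livers for 30 genes (76.9%), which was so for 21.2% of all tested genes. As the median of log2 CPM minus the mean of the 6 livers, the 39 genes stood at -0.35, -0.12 and -0.07 in FXR-WT and at 0.25, 0.19 and 0.21 in Y67F-FXR replicates 1 to 3, while all tested genes stood between -0.02 and 0.01 in every liver. In 11 genes (28.2%), FXR-WT replicate 1 was more than 1.5-fold below both other FXR-WT livers, against 5.97% of all tested genes. These 11 were Abcd3, Acot3, Acot4, Acsl1, Cd36, Cpt1a, Crat, Pex11a, Slc22a5, Slc27a1 and Vnn1, genes of 6 of the 9 compartments and none of the mitochondrial spiral. Of the 11, Acsl1, Cd36, Cpt1a, Pex11a and Vnn1 were also below the mean of the 6 livers in Y67F-FXR replicate 2. The others were above that mean in this liver.

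Without FXR-WT replicate 1, 35 of the 39 genes still had a fitted difference toward higher levels in Y67F-FXR (89.7%, against 51.6% of all tested genes), and 5 were called (12.8%, against 0.281%). The 3 Y67F-FXR livers then lay above the remaining FXR-WT livers for 23 genes (59.0%), against 15.2% of all tested genes, and the median log2FC was 0.26, against 0.01. The median coefficient of variation of the 39 genes was 12.4% in FXR-WT and 11.1% in Y67F-FXR livers, and that of all tested genes was 14.8% and 16%.

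**Figure D4:**
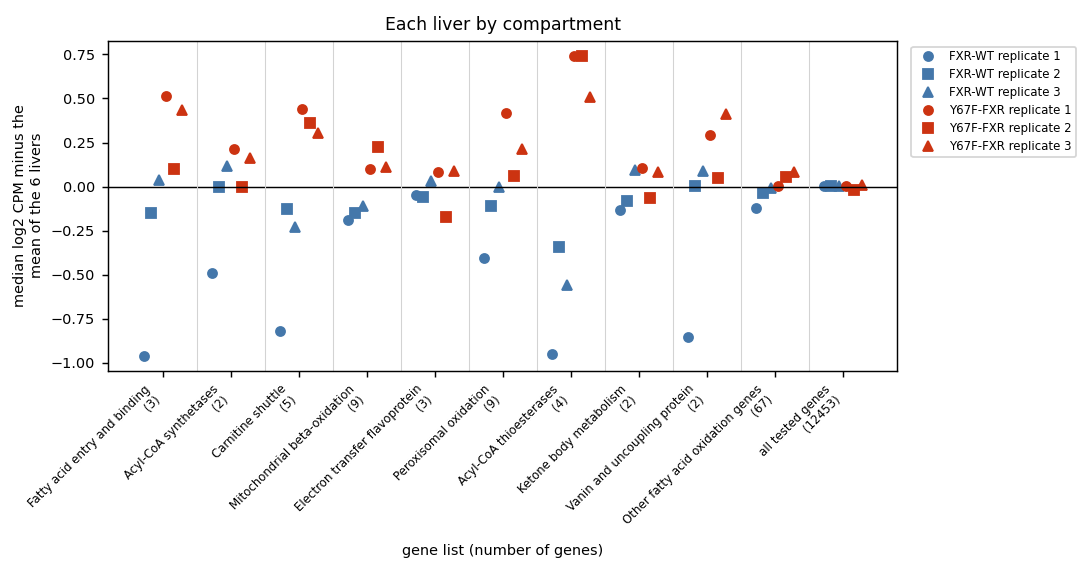
Median over the genes of each compartment of log2 CPM minus the mean of the 6 livers, per liver (blue FXR-WT, red Y67F-FXR, symbol by replicate), with 67 other fatty acid oxidation genes and all 12453 tested genes for comparison. The thioesterases run from -0.95 to 0.74, FXR-WT replicate 1 is lowest in most compartments, and all tested genes stay near 0.

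Other genes of the same pathways are given for comparison. Of 71 such genes, 67 were tested (Eci3, Acsl6, Acot5 and Acot6 had too few reads). The fitted difference was toward higher levels in Y67F-FXR for 43 and toward lower levels for 24, where 52.0% of all tested genes were fitted higher. The median log2FC was 0.12, against 0.01 over all tested genes. In 15 genes every Y67F-FXR liver lay above every FXR-WT liver and in 6 below, against 10.2% and 10.5% of all tested genes. At an unadjusted p under 0.05, 10 were higher and 8 lower, against 6.75% and 6.67% of all tested genes. None was called higher by edgeR, against 0.546% of all tested genes. DESeq2 called 1 higher, Slc25a42, and 3 lower, Acsl4, Nudt7 and Fabp5, where it called 215 higher and 216 lower of all tested genes. By edgeR 2 were called lower, against 0.426% of all tested genes. They were Nudt7, a peroxisomal hydrolase that degrades coenzyme A, and Fabp5, a fatty acid binding protein. Nudt7 had 522, 618 and 555 CPM in FXR-WT and 186, 215 and 252 CPM in Y67F-FXR livers, with a log2FC of -1.38 (SE 0.150, adjusted p = 0.0139). The groups lay far apart in this gene, which stood opposite in direction to most of the 39, and its adjusted p was 0.0614 without FXR-WT replicate 3. Fabp5 had 11.2, 10.4 and 10 CPM in FXR-WT and 2.82, 2.40 and 2.91 CPM in Y67F-FXR livers, with a log2FC of -1.96 (SE 0.162, adjusted p = 0.00483). It was called without each liver in turn. Slc25a42, a mitochondrial carrier of coenzyme A, had the next smallest adjusted p, at 63.1, 98.1 and 97.0 CPM in FXR-WT and 135, 140 and 148 CPM in Y67F-FXR livers (log2FC 0.72, adjusted p = 0.132).

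Of 16 regulators of fatty acid oxidation, 12 had a fitted difference toward higher levels in Y67F-FXR, against 52.0% of all tested genes, and the median log2FC was 0.21, against 0.01. None was called by edgeR, 5 were higher and 1 lower (Fgf21, named after its value was seen) at an unadjusted p under 0.05, against 6.75% and 6.67% of all tested genes, and DESeq2 called Lpin1. Fgf21, a hormone secreted by the liver, had 63, 14.6 and 14.6 CPM in FXR-WT and 8.70, 12.6 and 8.35 CPM in Y67F-FXR livers, so that FXR-WT replicate 1 stood far above the others. Its log2FC of -1.64 (adjusted p = 0.256) ran from -1.97 to -0.56 over the fits without 1 liver. The smallest adjusted p-values were those of Creb3l3, a hepatic transcription factor active in fasting (log2FC 0.45, adjusted p = 0.184), Lpin1, a phosphatidate phosphatase and coactivator (1.137, adjusted p = 0.198), and Ppargc1b, a coactivator (0.67, adjusted p = 0.225). Lpin1 had 19.8, 51.7 and 38.8 CPM in FXR-WT and 99.4, 55.5 and 87.8 CPM in Y67F-FXR livers, so that FXR-WT replicate 1 was lowest in it as well.

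No marker of the other cell types was called by edgeR, DESeq2 called S100a9 and Lrat lower, and at an unadjusted p under 0.05 none was higher, while 3 of 7 stellate cell, 2 of 12 Kupffer cell and leukocyte and 1 of 8 endothelial markers were lower in Y67F-FXR, as were 6.67% of all tested genes. Summed levels in FXR-WT and Y67F-FXR livers were 201 to 215 and 143 to 205 CPM for stellate cells, 156 to 225 and 127 to 336 CPM for Kupffer cells and leukocytes, and 231 to 260 and 240 to 251 CPM for endothelial cells. Cholangiocyte markers had 46.2 to 71.2 and 54.1 to 60.6 CPM. Adipocyte markers, whose cells also express several of the 39 genes, summed to at most 6.88 CPM, with Lep at 0 in every library. Of the erythrocyte markers, Alas2 carried the whole sum of 80.1 to 114 CPM, and Hba-a1, Hba-a2, Hbb-b1 and Hbb-b2 were listed at 0. The part of other cells in the differences of the 39 genes was not tested.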

How the data were processed

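RNA from the livers of 6 mice, 3 per group, was sequenced as paired-end reads of 100 bases, with 1 library per mouse, and groups were taken from the sample labels. Nothing in the labels says which mice of the larger study group were sequenced. The authors trimmed the reads with Trimmomatic 0.36, aligned them with STAR (2.5.3a in the submitters' processing notes) to mm9 and counted them per gene with featureCounts 1.4.6-p4. Counting ignored strand, took both reads of a pair separately, and skipped reads with more than 1 place or more than 1 gene. The deposited values are these raw counts per gene, not normalized. A deposited table of the authors' own comparison, with fold changes and p-values, was not used.

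The counts were compared with edgeR 4.0.16 in R 4.3.3 (filterByExpr, TMM factors, glmQLFit and glmQLFTest), with limma 3.58.1 loaded, and adjusted by the Benjamini-Hochberg method over all 12453 tested genes. Standard errors come from the F statistic. The common biological coefficient of variation was 0.194, and the median chi-square per gene between livers of 1 group was 2.12 to 6.9, above counting noise, and no livers were merged. CPM are scaled by TMM factors, log2 CPM used a prior count of 2, and CPM per kb used the exon length in the count files. Tables and plots were made with Python 3.11.15, pandas 2.3.3 and matplotlib 3.10.9.

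The 39 genes and all lists were chosen with earlier results of these data known, so no test was made over a list, and counts and medians are given beside those of all tested genes. Every one of the 39 is named. Each liver's value with full statistics is given for genes called or with an adjusted p under 0.1, for Cpt1a and for the most abundant gene of each compartment per length, and a few more are given by liver where values stood apart. From each of the 2 lists of other pathway genes, the called ones are named, filled up to 3 by the smallest adjusted p. Fgf21, Acsl3 and Acsl4 are named besides, after their values were seen. Alternatives were other scaling factors, DESeq2 1.42.0, a block for the replicate number, gene length offsets, other filters on low counts, calls without adjustment or without a fold minimum, and fits without each liver. Summed gene copies and the counts without FXR-WT replicate 1 of non-overlapping genes were added after the data were seen. Gene coordinates come from the count files (mm9). Promoter sequences are RefSeq's in GRCm38.p6, and shared windows were counted over GENCODE M21 transcripts. Pex2, Pex11g and Adgre1 were found under the older symbols Pxmp3, Pex11c and Emr1.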

Additional observations from a re-analysis of the deposited data

How the results depend on the processing

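The 4 called genes stayed called with median-of-ratios factors, with library totals and with a stricter filter (over 1 CPM in 3 or more libraries), and 35 of the 39 genes kept their direction in every alternative. DESeq2 called 9 of the 39 higher, gene length offsets 7, no filter on low counts 5, and an unadjusted p under 0.05 with the fold minimum 10. Leaving out 1 liver gave 0 to 5 calls among the 39, 1 to 2 lower among the 71 other pathway genes, and 2 to 35 higher and 7 to 33 lower among all tested genes. With FXR-WT replicate 3 left out there were 0 calls among the 39 and 2 higher among all tested genes.

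The labels give a replicate number and do not say whether same-numbered livers were paired. Deviations of same-numbered livers from their group means correlated at -0.517, -0.0804 and 0.121 over 12453 genes. FXR-WT replicate 1 correlated best with Y67F-FXR replicate 2 (0.537), and FXR-WT replicate 3 with Y67F-FXR replicate 1 (0.578). With 3 livers per group, these correlations cannot decide whether livers were paired or shared a batch. With the replicate block, 0 of the 39 genes, 0 of the other pathway genes and 2 higher and 6 lower of all tested genes were called, and with the block and gene length offsets together 4 of the 39, of which 3 were among the main calls, and 48 higher and 45 lower of all tested genes.

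Over all tested genes, against 68 higher and 53 lower, library totals gave 52 and 68, DESeq2 215 and 216, gene length offsets 123 and 124, the unadjusted threshold 382 and 401, and no filter 86 and 81. Of the other pathway genes, DESeq2 called 1 higher and 3 lower, and the unadjusted threshold 2 higher and 6 lower. Without 1 liver at a time, the median log2 fold change ran from 0.258 to 0.498 for the 39 genes, from 0.249 to 0.325 for mitochondrial beta-oxidation (0.181 with library totals, which shifted the median of all genes by -0.070), from 0.066 to 0.210 for the electron transfer flavoprotein genes and from 0.229 to 0.556 for the peroxisomal genes. The sign turned for Etfa with gene length offsets (0.010) and without 1 of 3 livers (-0.055 to 0.066 over the 6 fits), for Etfb without Y67F-FXR replicate 2 (-0.051, up to 0.409 over the 6 fits), for Acat1 with library totals (-0.036) and without FXR-WT replicate 1 or Y67F-FXR replicate 1 (-0.014 and -0.001, up to 0.094 over the 6 fits), and for Vnn1 without FXR-WT replicate 1 (-0.130). The cause of these changes was not tested.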
